A study of Mus musculus with 9 samples.

Results

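Transcript levels of 10 genes of the Notch pathway were compared between 3 populations of epithelial cells sorted from the mouse colon. They were the receptors Notch1, Notch2 and Notch3, the ligands Dll1, Dll4 and Jag1, the fringe glycosyltransferases Lfng and Mfng, and the pathway targets Hes1 and Nrarp. The genes were chosen by name, and all 10 were found among the 24421 gene symbols measured. Each population was represented by 3 libraries (n = 3 throughout). The goblet-enriched cells came from the crypt bottom and were sorted as positive for Epcam, Cd44 and Kit. The enterocyte-enriched cells came from the crypt top and were sorted as Epcam-positive, high for Cd66a (the product of Ceacam1) and negative for Cd44. The Lgr5-enriched cells came from the crypt bottom and were sorted as positive for Epcam and Cd44 and negative for Kit. All were taken from the colons of adult female C57BL/6J mice that the labels describe with no transgene and no treatment, and RNA was measured by poly-A sequencing. Each library is a sorted mixture enriched in its named cell type, not a pure one.

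Notch receptors are activated by ligands of the Delta and Jagged families on a neighbouring cell. Cleavage by ADAM10 and then within the membrane frees the receptor's intracellular domain, which binds RBPJ in the nucleus and switches on targets such as Hes1. In the intestinal crypt, HES1 represses Atoh1, the factor that commits a cell to the secretory fate, and ATOH1-expressing cells present Delta ligands to their neighbours. This exchange is known as lateral inhibition: the receiving neighbour stays a progenitor or takes the absorptive fate. Fringe enzymes add sugars to the receptor and so change which ligands it answers.

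Between 11.2 and 26.8 M reads (M, times 1000000) were recovered per library, so that 1 read of a 1 kb transcript came to 0.0958 to 0.208 TPM (transcripts per 1000000, a level corrected for transcript length). Markers of the named cell types were then read. Muc2, the main goblet mucin, stood at 9639 to 13123 TPM in goblet-enriched, 975 to 1326 TPM in enterocyte-enriched and 39.1 to 68.7 TPM in Lgr5-enriched libraries. Other goblet markers went the other way between the first pair. Zg16 averaged 345 TPM in goblet-enriched and 5481 TPM in enterocyte-enriched cells, and Tff3 1120.3 and 1918 TPM. Of 7 goblet markers, limma called 3 higher and 2 lower in goblet-enriched against enterocyte-enriched cells, beside 28.2% and 15.9% of all tested genes. The summed level of 7 colonocyte markers was 10.6 to 157 TPM in goblet-enriched, 2896 to 7058 TPM in enterocyte-enriched and 81.6 to 261 TPM in Lgr5-enriched libraries. The stem cell receptor Lgr5 stood at 1.0, 6.72 and 7.72 TPM in goblet-enriched, 0.0442, 0 and 0.333 TPM in enterocyte-enriched, and 31.4, 37.0 and 44.1 TPM in Lgr5-enriched replicates 1 to 3. Enterocyte-enriched replicate 1 and Lgr5-enriched replicate 1 stood apart. Enterocyte-enriched replicate 1 held 0.1277 TPM of Xist and a Y-gene sum of 138.6 TPM, against the female label, while the other 8 libraries held 110.3 to 203.7 TPM of Xist and at most 0.3245 TPM of Y genes. Lgr5-enriched replicate 1, the deepest library, held 49050 TPM of Rn45s, a precursor of ribosomal RNA, against 2356 to 6009 TPM elsewhere. Results that change without either library are given with and without it. Without Lgr5-enriched replicate 1 the members called came to 2 higher and 5 lower in goblet-enriched and 1 and 5 in enterocyte-enriched against Lgr5-enriched cells, and to 3 and 1 in goblet-enriched against enterocyte-enriched cells. Without enterocyte-enriched replicate 1 they came to 2 and 5, 2 and 6, and 3 and 0 in that order. Of all tested genes, 31.4%, 45.8% and 46.2% were called in these comparisons without Lgr5-enriched replicate 1. Without enterocyte-enriched replicate 1 the shares were 36%, 40.9% and 35.2%. Mfng was not tested without Lgr5-enriched replicate 1.

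Goblet-enriched cells held more of the Delta ligands Dll1 and Dll4 and of Lfng than Lgr5-enriched cells. They held less of the receptors Notch1 and Notch2, of the targets Hes1 and Nrarp, and of Jag1. Of the 9 members tested, 3 were therefore higher and 5 lower, and Mfng was not called. Calls were made by limma on log2(TPM + 1) where the p adjusted by Benjamini-Hochberg fell below 0.05. Among all 12888 genes tested in this comparison, 34.3% were called, 10.7% higher and 23.6% lower. The median log2 difference was -1.05 over the members and -0.26 over all tested genes.

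Enterocyte-enriched cells, set against Lgr5-enriched cells, also held more Dll1 and Dll4 and less Notch1, Notch2, Hes1, Nrarp and Jag1, but they held less Lfng. That made 2 members higher, 6 lower and Mfng not called, against 49.6% of all tested genes called, 12% higher and 37.6% lower. The median log2 difference was -1.26 over the members and -0.35 over all tested genes. The same 3 Lgr5-enriched libraries serve both comparisons, so their results are not independent of each other.

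Goblet-enriched cells, set against enterocyte-enriched cells, held more Dll1, Dll4, Lfng and Mfng and less Jag1. That made 4 members higher and 1 lower. Notch1, Notch2, Hes1 and Nrarp did not pass the test. Of all tested genes, 44.1% were called, 28.2% higher and 15.9% lower, and the median log2 difference was 0.13 over the members and 0.20 over all tested genes.

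The balance of directions over all genes depended on the scaling between libraries. TPM sets the same total in every library, and the part of this in the balance was not tested. The higher share of the calls was 31.3%, 24.2% and 63.9% in the 3 comparisons (goblet-enriched and enterocyte-enriched each against Lgr5-enriched cells, then goblet-enriched against enterocyte-enriched cells). It was 54.3%, 54.5% and 48.1% in that order after median-of-ratios scaling, and 49.2%, 45.6% and 54.8% after quantile normalization. The median difference of all tested genes, -0.256, -0.346 and 0.203 on the log2 scale, came to -0.053, 0.025 and 0.036 after median-of-ratios scaling. Among the members these scalings ended the call of Jag1 in enterocyte-enriched against Lgr5-enriched cells and gave a call for Notch2 in goblet-enriched against enterocyte-enriched cells, and they changed no other call.

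**Figure D1:**
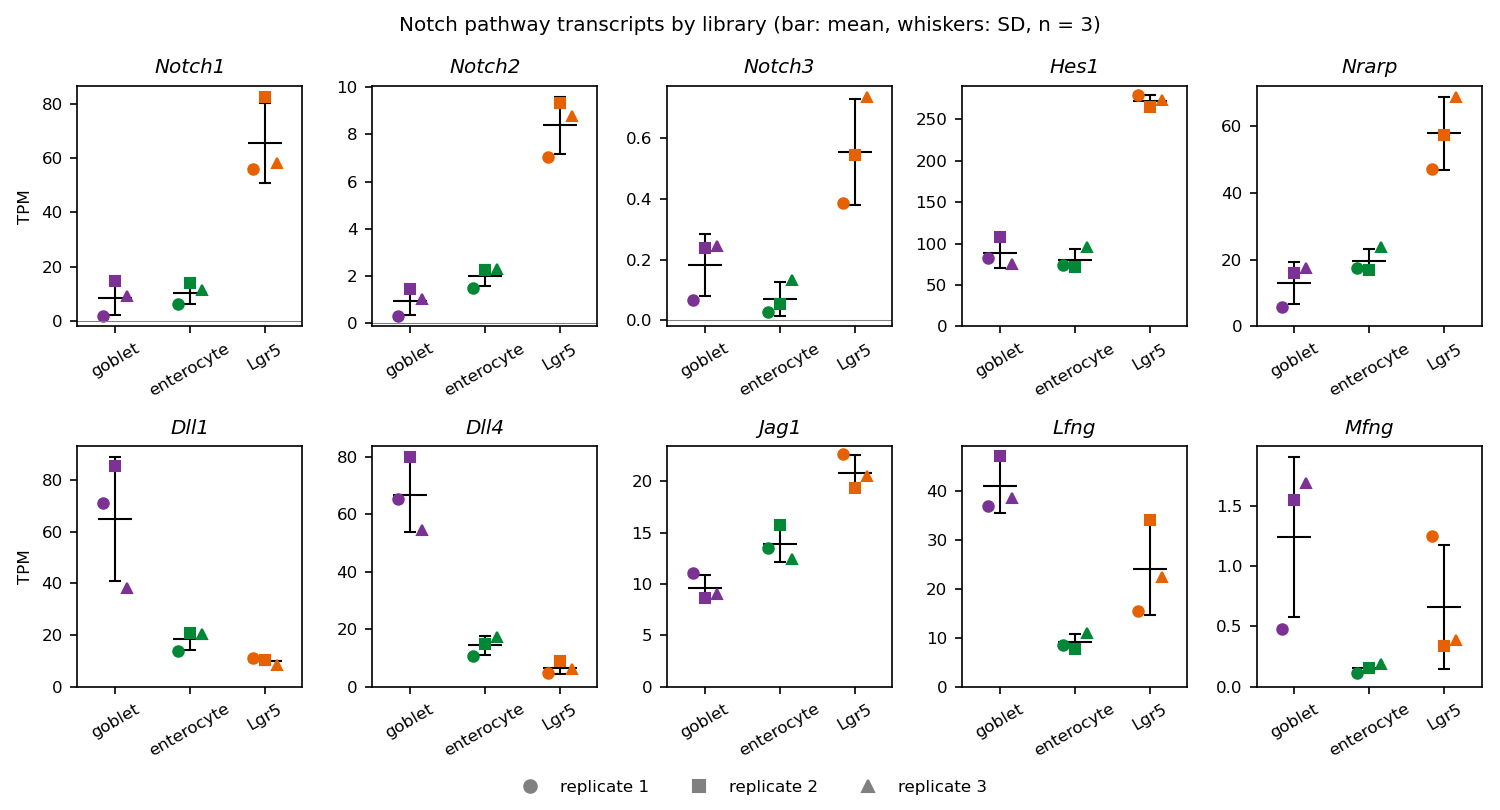
Level of each of the 10 Notch genes in TPM (vertical axes, linear) in the goblet-enriched, enterocyte-enriched and Lgr5-enriched libraries, with 1 symbol per library by replicate number, a bar at the mean and whiskers of 1 SD (n = 3). Dll1 and Dll4 are highest in the 3 goblet-enriched libraries, and Notch1, Notch2, Hes1, Nrarp and Jag1 are highest in the 3 Lgr5-enriched libraries.

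Dll1, a Delta ligand, was at 71.0, 85.4 and 38.4 TPM in goblet-enriched replicates 1 to 3, at 13.7, 20.9 and 20.3 TPM in enterocyte-enriched and at 11.3, 10.2 and 8.49 TPM in Lgr5-enriched replicates 1 to 3. The 3 populations did not overlap, and the lowest goblet-enriched library, replicate 3, was still above every library of the others. Mean levels were 64.9 ± 24.0 TPM in goblet-enriched, 18.3 ± 4.01 TPM in enterocyte-enriched and 9.98 ± 1.41 TPM in Lgr5-enriched cells (SD). Dll1 was thus 6.51 times as abundant in goblet-enriched as in Lgr5-enriched cells, with a log2 difference of 2.52 (SE 0.29, limma Benjamini-Hochberg adjusted p = 0.00033). Fewer cells of a type and less RNA per cell cannot be told apart in such bulk samples. Goblet-enriched cells also exceeded enterocyte-enriched cells, by 1.72 on the log2 scale (SE 0.29, limma adjusted p = 0.00155).

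Between enterocyte-enriched and Lgr5-enriched cells the Dll1 difference was smaller, 0.80 on the log2 scale (SE 0.29, limma adjusted p = 0.0449, 0.00492 to 0.13 over the alternatives). This call ended with no filter on low values (limma adjusted p = 0.0700) and without goblet-enriched replicate 1 (limma adjusted p = 0.0509), enterocyte-enriched replicate 2 or 3 (0.125 and 0.120) or Lgr5-enriched replicate 1, 2 or 3 (0.0586, 0.0851 and 0.130). Without enterocyte-enriched replicate 1 the difference was 0.98 (limma adjusted p = 0.0341). Quantile normalization gave 1.25. The summed level of 7 goblet markers moved the same way, at 14421 to 22671 TPM in enterocyte-enriched against 1490.2 to 1652 TPM in Lgr5-enriched libraries, and its part in the Dll1 and Dll4 differences was not tested.

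Dll4, the other Delta ligand, was at 65.2, 79.9 and 54.7 TPM in goblet-enriched, at 10.8, 15.0 and 17.4 TPM in enterocyte-enriched and at 4.83, 8.91 and 6.02 TPM in Lgr5-enriched replicates 1 to 3. Again the populations did not overlap and stood in the same order as for Dll1. Means were 66.6 ± 12.6, 14.4 ± 3.35 and 6.58 ± 2.10 TPM in goblet-enriched, enterocyte-enriched and Lgr5-enriched cells (SD). Dll4 had the largest fold among the higher members, 10.1 between goblet-enriched and Lgr5-enriched cells (log2 difference 3.17, SE 0.25, limma adjusted p = 4.21e-05). It was higher by 2.14 in goblet-enriched than in enterocyte-enriched cells (SE 0.25, limma adjusted p = 0.000215) and by 1.03 in enterocyte-enriched than in Lgr5-enriched cells (SE 0.25, limma adjusted p = 0.00769). The last was 1.21 without enterocyte-enriched replicate 1 (limma adjusted p = 0.00694) and 0.86 without Lgr5-enriched replicate 1 (limma adjusted p = 0.0251).

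Dll4 lies at chr2:119325784-119335962 on the plus strand of GRCm38 and overlaps Gm14207 on the opposite strand. Gm14207 was at 23.6, 32.5 and 25.1 TPM in goblet-enriched, 7.65, 6.51 and 9.08 TPM in enterocyte-enriched and 2.05, 4.85 and 2.72 TPM in Lgr5-enriched replicates 1 to 3. It was thus ordered like Dll4 among the populations. Whether reads were counted by strand is not given in the sources used here, so the share of reads from each strand cannot be told apart. Dll1 lies at chr17:15367354-15376872 on the minus strand. Both are protein-coding genes.

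Jag1, the Jagged ligand of the set (chr2:137081456-137116644, minus strand), ran the other way. It was at 11.1, 8.62 and 9.02 TPM in goblet-enriched, 13.5, 15.8 and 12.4 TPM in enterocyte-enriched and 22.7, 19.4 and 20.5 TPM in Lgr5-enriched replicates 1 to 3. The 3 populations did not overlap, with goblet-enriched libraries lowest. Jag1 averaged 9.59 ± 1.35 TPM in goblet-enriched and 20.8 ± 1.66 TPM in Lgr5-enriched cells (SD), a log2 difference of -1.05 (SE 0.16, limma adjusted p = 0.00146). In enterocyte-enriched cells it averaged 13.9 ± 1.72 TPM, with a difference of -0.56 to Lgr5-enriched cells (SE 0.16, limma adjusted p = 0.0175, 0.00301 to 0.672 over the alternatives). That call ended under median-of-ratios scaling (-0.17, limma adjusted p = 0.475), under quantile normalization (-0.11, limma adjusted p = 0.672), without enterocyte-enriched replicate 3 (limma adjusted p = 0.0625) and without Lgr5-enriched replicate 1 (limma adjusted p = 0.0505). It was -0.54 without enterocyte-enriched replicate 1 (limma adjusted p = 0.0462).

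Goblet-enriched against enterocyte-enriched cells differed in Jag1 by -0.49 (SE 0.16, limma adjusted p = 0.0320, 0.00365 to 0.117 over the alternatives). The call ended when only the 6 compared libraries were fitted (limma adjusted p = 0.0639) and without goblet-enriched replicate 2 or 3 (0.104 and 0.0866), enterocyte-enriched replicate 1 or 2 (0.0629 and 0.117) or Lgr5-enriched replicate 3 (0.0511). The make-up of the 3 ligands differed by population, as Jag1 was 4.96% to 8.83% of their summed TPM in goblet-enriched, 24.8% to 35.6% in enterocyte-enriched and 50.4% to 58.6% in Lgr5-enriched libraries. These shares were described and not tested.

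Notch1, a receptor (chr2:26457903-26516663, minus strand), was at 1.94, 14.5 and 9.22 TPM in goblet-enriched, 6.01, 13.9 and 11.2 TPM in enterocyte-enriched and 55.9, 82.5 and 58.1 TPM in Lgr5-enriched replicates 1 to 3. Every Lgr5-enriched library was above every other library, while goblet-enriched and enterocyte-enriched libraries overlapped. Mean levels were 8.54 ± 6.29, 10.4 ± 4.03 and 65.5 ± 14.8 TPM in goblet-enriched, enterocyte-enriched and Lgr5-enriched cells (SD). The goblet-enriched mean rests on few and scattered libraries, and was 5.58 TPM without replicate 2. Notch1 was lower than in Lgr5-enriched cells by a log2 difference of -3.08 in goblet-enriched cells (SE 0.55, limma adjusted p = 0.00317) and of -2.59 in enterocyte-enriched cells (SE 0.55, limma adjusted p = 0.00413). Lgr5-enriched cells held 7.66 times the level of goblet-enriched cells and 6.31 times that of enterocyte-enriched cells. Goblet-enriched against enterocyte-enriched cells did not differ beyond the spread (-0.49, SE 0.55, limma adjusted p = 0.496).

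Notch2, a receptor close in structure to Notch1 (chr3:98013527-98150361, plus strand), was present at lower levels. It was at 0.317, 1.44 and 1.01 TPM in goblet-enriched, 1.49, 2.25 and 2.27 TPM in enterocyte-enriched and 7.04, 9.35 and 8.78 TPM in Lgr5-enriched replicates 1 to 3. The 3 populations did not overlap, although the highest goblet-enriched library, 1.44 TPM, lay just under the lowest enterocyte-enriched one, 1.49 TPM. Means were 0.924 ± 0.568, 2.00 ± 0.448 and 8.39 ± 1.20 TPM in goblet-enriched, enterocyte-enriched and Lgr5-enriched cells (SD). Lgr5-enriched cells held 9.08 times the goblet-enriched level (log2 difference -2.32, SE 0.26, limma adjusted p = 0.000289) and 4.19 times the enterocyte-enriched level (log2 difference -1.65, SE 0.26, limma adjusted p = 0.00101). At 19 to 80 reads per goblet-enriched library, the log2(TPM + 1) scale understates the first difference.

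Goblet-enriched against enterocyte-enriched cells differed in Notch2 by -0.68 (SE 0.26), which did not pass the test (limma adjusted p = 0.0610). It passed with the replicate number as a block (-0.68, limma adjusted p = 0.0122), after median-of-ratios scaling (-0.81, 0.0265) or quantile normalization (-0.83, 0.0094), with array weights (-0.52, 0.0374), in limma-voom on recovered reads (-1.45, 0.0396) and without goblet-enriched replicate 2 (-0.87, 0.0383).

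Notch3, a receptor best known from vascular mural cells (chr17:32120820-32166852, minus strand), failed the filter and was not part of the test. It was at 0.0662, 0.239 and 0.244 TPM in goblet-enriched, 0.0262, 0.0547 and 0.132 TPM in enterocyte-enriched and 0.386, 0.545 and 0.737 TPM in Lgr5-enriched replicates 1 to 3, on 1 to 33 reads per library. The Lgr5-enriched libraries were above all others, but no library reached 1 TPM. With no filter on low values it was lower than in Lgr5-enriched cells by a log2 difference of -0.39 in goblet-enriched (SE 0.10, limma adjusted p = 0.0244) and of -0.53 in enterocyte-enriched cells (SE 0.10, limma adjusted p = 0.00417), and goblet-enriched against enterocyte-enriched cells differed by 0.14 (SE 0.10, limma adjusted p = 0.338). The summed level of 10 pericyte, smooth muscle and fibroblast markers was 2.68 to 10.9 TPM in goblet-enriched, 5.6 to 11.2 TPM in enterocyte-enriched and 6.01 to 15.2 TPM in Lgr5-enriched libraries. Of these markers Pdgfrb alone reached 8.96 TPM in goblet-enriched, 9.72 TPM in enterocyte-enriched and 12.7 TPM in Lgr5-enriched libraries. Rgs5 was at 0 in all enterocyte-enriched libraries and at most 0.105 TPM elsewhere. The part of these markers in the Notch3 level was not tested.

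In all 3 populations, replicate 1 was the lowest library in each of the 3 receptors, so this was not particular to goblet-enriched cells. Goblet-enriched replicate 1 was the lowest of its population in Nrarp too. It was also lowest there in the stem cell genes Lgr5, at 1.0 TPM against 6.72 and 7.72 TPM, and Ascl2, at 1.63 TPM against 12.0 and 6.84 TPM. Lgr5-enriched replicate 1 was likewise the lowest of its population in Lgr5, at 31.4 TPM, and in Ascl2, at 30.4 TPM. Of the other stem cell markers, Axin2, Rgmb, Rnf43 and Znrf3 were also lowest in replicate 1 of both populations. Smoc2 and Sox9 were lowest in replicate 1 of goblet-enriched but not of Lgr5-enriched cells. Slc12a2 was highest in replicate 1 of both, at 359 TPM in goblet-enriched and 643 TPM in Lgr5-enriched cells. Summed over 9 Lgr5 stem cell markers, goblet-enriched libraries held 614 to 672 TPM, enterocyte-enriched 156 to 253 TPM and Lgr5-enriched 1146 to 1334 TPM. The part of the stem cell markers in the receptor levels was not tested. Without goblet-enriched replicate 1 the Notch1 difference to Lgr5-enriched cells was -2.38 (limma adjusted p = 0.00237).

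Hes1, a transcriptional repressor and a direct Notch target (chr16:30064384-30067796, plus strand), varied little within Lgr5-enriched cells. It was at 82.5, 108 and 74.8 TPM in goblet-enriched, 74.6, 71.7 and 95.3 TPM in enterocyte-enriched and 279, 265 and 273 TPM in Lgr5-enriched replicates 1 to 3. All Lgr5-enriched libraries were above all others, and goblet-enriched and enterocyte-enriched libraries overlapped. Means were 88.5 ± 17.5, 80.5 ± 12.9 and 273 ± 6.90 TPM in goblet-enriched, enterocyte-enriched and Lgr5-enriched cells (SD). Set against Lgr5-enriched cells, Hes1 was lower by a log2 difference of -1.63 in goblet-enriched (SE 0.16, limma adjusted p = 0.000152) and of -1.76 in enterocyte-enriched cells (SE 0.16, limma adjusted p = 0.000179). Goblet-enriched against enterocyte-enriched cells differed by 0.13, within the spread (SE 0.16, limma adjusted p = 0.543), although Dll1 and Dll4 differed between them.

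Nrarp, a Notch target whose product feeds back on the pathway (chr2:25180758-25183339, plus strand), was at 5.86, 16 and 17.4 TPM in goblet-enriched, 17.6, 16.8 and 23.9 TPM in enterocyte-enriched and 47.1, 57.4 and 68.8 TPM in Lgr5-enriched replicates 1 to 3. The Lgr5-enriched libraries were again above all others, and the other populations overlapped. Means were 13.1 ± 6.30, 19.4 ± 3.89 and 57.8 ± 10.9 TPM in goblet-enriched, enterocyte-enriched and Lgr5-enriched cells (SD). Nrarp was lower by a log2 difference of -2.17 in goblet-enriched (SE 0.35, limma adjusted p = 0.00201) and of -1.53 in enterocyte-enriched cells (SE 0.35, limma adjusted p = 0.0063) than in Lgr5-enriched cells. Between goblet-enriched and enterocyte-enriched cells the difference was -0.65 (SE 0.35, limma adjusted p = 0.164). Hes1 was 14.1, 6.78 and 4.29 times as abundant as Nrarp in goblet-enriched replicates 1 to 3, 3.99 to 4.28 times in enterocyte-enriched and 3.97 to 5.93 times in Lgr5-enriched libraries.

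Lfng, a fringe enzyme (chr5:140607320-140615545, plus strand), had a pattern of its own. It was at 37.0, 47.2 and 38.7 TPM in goblet-enriched, 8.56, 7.74 and 10.9 TPM in enterocyte-enriched and 15.5, 34.1 and 22.5 TPM in Lgr5-enriched replicates 1 to 3. The populations did not overlap, with Lgr5-enriched libraries between the others and more scattered. Means were 41.0 ± 5.46, 9.07 ± 1.64 and 24.0 ± 9.42 TPM in goblet-enriched, enterocyte-enriched and Lgr5-enriched cells (SD). Goblet-enriched cells held 4.52 times the level of enterocyte-enriched cells (log2 difference 2.06, SE 0.26, limma adjusted p = 0.000349). Enterocyte-enriched cells were below Lgr5-enriched cells by a log2 difference of -1.26 (SE 0.26, limma adjusted p = 0.00387), and by -0.81 after quantile normalization (limma adjusted p = 0.0245).

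Goblet-enriched against Lgr5-enriched cells differed in Lfng by 0.81 (SE 0.26, limma adjusted p = 0.0408, 0.00395 to 0.122 over the alternatives), a call close to the threshold. It ended with no filter on low values (limma adjusted p = 0.0633), when only the 6 compared libraries were fitted (0.0632) and without goblet-enriched replicate 1, 2 or 3 (0.0604, 0.122 and 0.0799), enterocyte-enriched replicate 1 or 2 (0.0505 and 0.0510) or Lgr5-enriched replicate 3 (0.105). Without Lgr5-enriched replicate 1 the difference was 0.54 (limma adjusted p = 0.0993), and without replicate 1 of all populations the limma adjusted p was 0.0945.

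Mfng, the fringe named manic (chr15:78755882-78773475, minus strand), was represented by few reads. It was at 0.478, 1.55 and 1.69 TPM in goblet-enriched, 0.113, 0.158 and 0.19 TPM in enterocyte-enriched and 1.25, 0.337 and 0.387 TPM in Lgr5-enriched replicates 1 to 3, on 1 to 24 reads. Goblet-enriched libraries were above all enterocyte-enriched ones, while Lgr5-enriched libraries overlapped with goblet-enriched ones. It passed the filter through 3 libraries only, goblet-enriched replicates 2 and 3 and Lgr5-enriched replicate 1. The gene was therefore not tested without any 1 of these 3, without replicate 1 of all populations or with the filter at 5 TPM. Without Lgr5-enriched replicate 1, the Lgr5-enriched mean of 0.659 TPM was 0.362 TPM. Goblet-enriched exceeded enterocyte-enriched cells by 0.91 (SE 0.30, limma adjusted p = 0.0355, 0.00148 to 0.088 over the alternatives), a call that ended without enterocyte-enriched replicate 1, 2 or 3 (limma adjusted p = 0.088, 0.0813 and 0.0741). Differences to Lgr5-enriched cells were 0.43 in goblet-enriched (SE 0.30, limma adjusted p = 0.299) and -0.48 in enterocyte-enriched cells (SE 0.30, limma adjusted p = 0.212). The first passed with array weights (0.83, limma adjusted p = 0.00305).

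**Figure D2:**
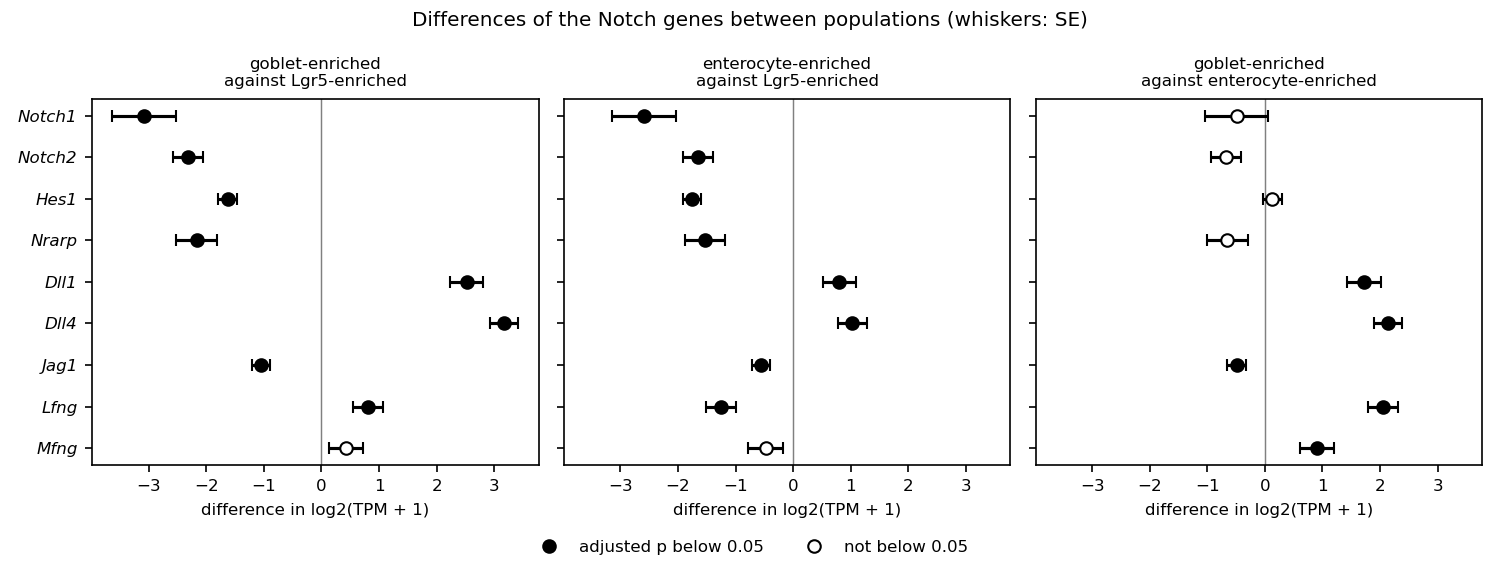
Difference in log2(TPM + 1) (horizontal axes) of the 9 tested Notch genes in each of the 3 comparisons, with whiskers of 1 SE and filled points where the limma adjusted p was below 0.05. Dll4 and Dll1 lie furthest to the right in goblet-enriched against Lgr5-enriched cells, at 3.17 and 2.52, and Notch1 furthest to the left, at -3.08.

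The ligands and receptors were therefore set against each other within a library. Dll1 and Dll4 summed to 136, 165 and 93.2 TPM in goblet-enriched, 24.4, 35.8 and 37.7 TPM in enterocyte-enriched and 16.1, 19.1 and 14.5 TPM in Lgr5-enriched replicates 1 to 3. Notch1, Notch2 and Notch3 summed to 2.32, 16.2 and 10.5 TPM in goblet-enriched, 7.52, 16.2 and 13.6 TPM in enterocyte-enriched and 63.3, 92.4 and 67.6 TPM in Lgr5-enriched replicates 1 to 3. Goblet-enriched cells were thus rich in Delta transcripts and Lgr5-enriched cells in receptor transcripts. Delta transcripts per receptor transcript came to 58.6, 10.2 and 8.90 in goblet-enriched, 3.25, 2.21 and 2.77 in enterocyte-enriched and 0.255, 0.207 and 0.215 in Lgr5-enriched replicates 1 to 3. The populations did not overlap in this ratio, which was described without a test. These values depend on which receptors are summed. With Notch4, which lies outside the 10 genes, the receptor sum was 13.3, 31.7 and 22.2 TPM in goblet-enriched, 11.6, 20.6 and 18.3 TPM in enterocyte-enriched and 67.9, 97.9 and 71.4 TPM in Lgr5-enriched replicates 1 to 3. The ratio was then 10.2, 5.22 and 4.19 in goblet-enriched, 2.10, 1.74 and 2.06 in enterocyte-enriched and 0.237, 0.195 and 0.203 in Lgr5-enriched replicates 1 to 3. With either sum the populations did not overlap, and the ratio was below 1 in Lgr5-enriched libraries and above 1 in all others.

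**Figure D3:**
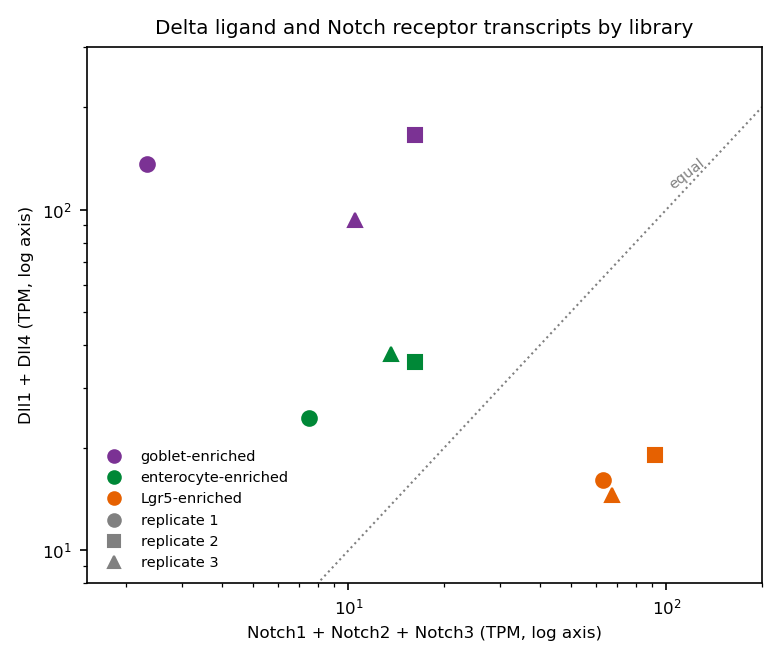
Summed Dll1 and Dll4 level (vertical, TPM, log axis) against the summed level of the receptors Notch1, Notch2 and Notch3 (horizontal, TPM, log axis), 1 symbol per library, with a dotted line where both are equal. The 3 Lgr5-enriched libraries lie below the line at 14.5 to 19.1 TPM of Delta ligands, the 6 other libraries lie above it, and goblet-enriched replicate 1 lies far left at 2.32 TPM of these 3 receptors, Notch4 not being among them.

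Ratios within a family were compared too. Notch1 was 6.12 to 10 times as abundant as Notch2 in goblet-enriched, 4.04 to 6.2 times in enterocyte-enriched and 6.62 to 8.82 times in Lgr5-enriched libraries. Dll1 was 0.702 to 1.09 times as abundant as Dll4 in goblet-enriched, 1.16 to 1.4 times in enterocyte-enriched and 1.14 to 2.34 times in Lgr5-enriched libraries.

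Promoter windows are shown for the 3 genes that were higher in goblet-enriched cells, Lfng, Dll1 and Dll4, and for Nrarp, which was lower there. They are from RefSeq on GRCm38.p6, run 5′ to 3′ on the gene's strand, and hold 250 bases before the start and 30 from it on, 280 in all. Capitals mark TGGGAA, the core letters bound by RBPJ, CAGCTG and CAGATG, E-box letters bound by factors of the ATOH1 kind, and CACNAG, the N-box letters bound by HES factors, on either strand. Of the members, 8 had an entry, with 9 windows because Dll1 has a pair of starts. The windows lie at chr5:140607091-140607370 on the plus strand for Lfng, chr17:15376903-15377182 on the minus strand for the Dll1 start 2, chr2:119325534-119325813 on the plus strand for Dll4 and chr2:25180508-25180787 on the plus strand for Nrarp.
Lfng: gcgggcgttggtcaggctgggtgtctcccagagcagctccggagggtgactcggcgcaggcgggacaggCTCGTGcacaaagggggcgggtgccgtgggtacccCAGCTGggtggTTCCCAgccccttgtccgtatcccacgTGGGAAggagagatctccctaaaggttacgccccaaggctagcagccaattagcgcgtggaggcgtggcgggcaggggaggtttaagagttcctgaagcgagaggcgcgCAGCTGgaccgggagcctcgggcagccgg
Dll1: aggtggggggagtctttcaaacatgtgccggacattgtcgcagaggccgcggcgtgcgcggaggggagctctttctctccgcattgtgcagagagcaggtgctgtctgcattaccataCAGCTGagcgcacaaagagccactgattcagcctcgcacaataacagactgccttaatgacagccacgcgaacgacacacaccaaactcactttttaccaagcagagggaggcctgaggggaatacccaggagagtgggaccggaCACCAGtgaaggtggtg
Dll4: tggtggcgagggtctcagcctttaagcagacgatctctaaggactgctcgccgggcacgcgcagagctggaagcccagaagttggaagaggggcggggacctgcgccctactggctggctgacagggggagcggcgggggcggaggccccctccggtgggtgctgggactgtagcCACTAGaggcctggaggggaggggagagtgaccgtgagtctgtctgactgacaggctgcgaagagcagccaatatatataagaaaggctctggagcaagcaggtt
Nrarp: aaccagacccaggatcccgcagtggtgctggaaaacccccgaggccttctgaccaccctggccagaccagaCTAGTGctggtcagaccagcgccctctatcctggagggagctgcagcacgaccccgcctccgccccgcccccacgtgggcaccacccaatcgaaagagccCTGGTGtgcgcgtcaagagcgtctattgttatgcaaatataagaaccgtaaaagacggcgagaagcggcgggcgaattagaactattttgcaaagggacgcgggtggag

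The Lfng window held 2 RBPJ core matches, at -135 and -108 from the start, 2 CAGCTG matches at -146 and 1, and an N-box match at -181. The Dll1 window held CAGCTG at -132 and an N-box match at 13, while the window of the other Dll1 start held 0 matches of the 4 motifs. The Dll4 window held an N-box match at -75 and the Nrarp window N-box matches at -179 and -79. Of the windows not printed, that of Jag1, which was lower in goblet-enriched cells, held CAGCTG at -82, and those of Notch1, Notch2 and Notch3 held 3, 1 and 2 N-box matches. Such letters are common: TGGGAA was found in 23.8%, CAGCTG in 14.9%, CAGATG in 16.1% and CACNAG in 40.2% of all 32851 windows of this length. A match describes the letters only and shows no binding.

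The pathway around these genes was described with 76 further genes in 8 lists, of which 62 were tested. Goblet-enriched against Lgr5-enriched cells had 10 of them higher and 12 lower, which is 35.5% called beside 34.3% of all tested genes. Enterocyte-enriched against Lgr5-enriched cells had 7 higher and 24 lower, 50% called beside 49.6%. Goblet-enriched against enterocyte-enriched cells had 17 higher and 6 lower, 37.1% called beside 44.1%. The called share of these genes was thus near or under that of all genes, and their median log2 differences of -0.17, -0.41 and 0.25 were near those of all tested genes, -0.26, -0.35 and 0.20. The total called, higher and lower together, moved by over 1.5 times without goblet-enriched replicate 2 (3 higher and 9 lower against Lgr5-enriched, 8 and 4 against enterocyte-enriched cells). Against Lgr5-enriched cells it also did so without goblet-enriched replicate 3 (6 and 8), without Lgr5-enriched replicate 3 (6 and 6) and with array weights (12 and 24). Of all tested genes, 24.3%, 35.6%, 26.2%, 20.7% and 59.1% were called in these fits in that order. After median-of-ratios scaling the higher and lower counts were 11 and 6 in goblet-enriched and 14 and 9 in enterocyte-enriched against Lgr5-enriched cells, and 11 and 9 in goblet-enriched against enterocyte-enriched cells. After quantile normalization they were 12 and 7, 11 and 12, and 13 and 8 in that order. The called share of these genes was 27.4%, 37.1% and 32.3% after median-of-ratios scaling, beside 26.3%, 43.2% and 41.2% of all tested genes. It was 30.6%, 37.1% and 33.9% after quantile normalization, beside 29.7%, 41.2% and 40.9%. The balance of directions thus turned with either scaling in goblet-enriched against Lgr5-enriched cells, and with median-of-ratios scaling in enterocyte-enriched against Lgr5-enriched cells. The counts include Dll3, Dlk1 and Hes7, which passed the filter on low values only through goblet-enriched libraries.

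Among the receptors and ligands outside the set, Notch4 was higher in goblet-enriched cells and Jag2 was not called in any of the 3 comparisons. Notch4, a receptor best known from endothelium, was at 11, 15.5 and 11.8 TPM in goblet-enriched, 4.10, 4.39 and 4.70 TPM in enterocyte-enriched and 4.63, 5.53 and 3.79 TPM in Lgr5-enriched replicates 1 to 3. All goblet-enriched libraries were above all others, with a log2 difference of 1.28 to Lgr5-enriched (SE 0.19, limma adjusted p = 0.00134) and of 1.34 to enterocyte-enriched cells (SE 0.19, limma adjusted p = 0.000662), so this receptor ran opposite to Notch1 and Notch2. The summed level of 9 endothelial markers was 1.5 to 7.41 TPM in goblet-enriched, 1.89 to 4.02 TPM in enterocyte-enriched and 4.34 to 7.5 TPM in Lgr5-enriched libraries. Of these, 2 passed the filter, Esam and Egfl7. Esam was at 1.13 to 5.01, 0.112 to 1.09 and 2.63 to 3.67 TPM in that order, and Egfl7 at 0.324 to 0.932, 0.256 to 0.643 and 1.27 to 2.95 TPM. Tie1 was at 0 in all Lgr5-enriched libraries and at most 0.112 TPM elsewhere. The part of these markers in the Notch4 level was not tested.

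Dll3, a Delta ligand that acts inside the cell, was at 2.03, 2.89 and 3.40 TPM in goblet-enriched, 0.289, 0.201 and 0.0805 TPM in enterocyte-enriched and 0.133, 0.0954 and 0.082 TPM in Lgr5-enriched replicates 1 to 3, where it rests on 1 to 3 reads per library outside the goblet-enriched cells. Goblet-enriched libraries were above all others. Dlk1, a Delta-like protein without the usual receptor-binding region, was at 9.55, 8.98 and 6.24 TPM in goblet-enriched, 0.995, 0.512 and 0.435 TPM in enterocyte-enriched and 0.0199, 0.300 and 0.369 TPM in Lgr5-enriched replicates 1 to 3. Here too the goblet-enriched libraries were above all others. Both genes reached 1 TPM in the 3 goblet-enriched libraries and in no other, so they passed the filter only through the population where they are high, and their levels are given as a description with no test.

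Of the 10 receptor cleavage genes, 0 were called between goblet-enriched and Lgr5-enriched cells in limma, beside 34.3% of all genes, and 1 had an unadjusted p below 0.05. limma-voom also called 0, median-of-ratios scaling 1, the replicate block 2, array weights 3 and the fit without replicate 1 of all populations 3. Of all tested genes these settings called 30.6%, 26.3%, 49.3%, 59.1% and 44.7% in that order. Enterocyte-enriched against Lgr5-enriched cells had 2 higher and 0 lower, beside 12% and 37.6% of all tested genes. In this comparison 5 were higher after median-of-ratios scaling and 7 were called with array weights. With these settings 43.2% and 64.7% of all tested genes were called in either direction. Goblet-enriched against enterocyte-enriched cells had 0 higher and 2 lower, beside 28.2% and 15.9% of all tested genes. Adam10, the protease that makes the first ligand-dependent cut, averaged 80.1 ± 28, 75.5 ± 18.8 and 105 ± 22.6 TPM in goblet-enriched, enterocyte-enriched and Lgr5-enriched cells (SD) and was not called in any comparison. With the replicate number as a block it passed in goblet-enriched (limma adjusted p = 0.0111) and in enterocyte-enriched cells (limma adjusted p = 0.00455) against Lgr5-enriched cells.

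Of 7 ligand endocytosis genes, goblet-enriched cells had 1 higher and 0 lower, and enterocyte-enriched cells 2 higher and 2 lower, against Lgr5-enriched cells. Beside these stood 10.7% higher and 23.6% lower of all tested genes in the first comparison, and 12% and 37.6% in the second. Mib1, the ubiquitin ligase that makes Delta ligands active, averaged 29.2 ± 6.01, 16.9 ± 2.05 and 35.8 ± 2.04 TPM in goblet-enriched, enterocyte-enriched and Lgr5-enriched cells (SD). It was lower in enterocyte-enriched than in Lgr5-enriched cells (-1.05, limma adjusted p = 0.00112) and higher in goblet-enriched than in enterocyte-enriched cells (0.74, limma adjusted p = 0.00717). Goblet-enriched against Lgr5-enriched cells were not called (-0.30, limma adjusted p = 0.193), so the cells with most Dll1 and Dll4 held Mib1 at 23.5 to 35.5 TPM per library. Neurl1b, another ligase of ligand uptake, was higher in enterocyte-enriched than in Lgr5-enriched cells (1.28, limma adjusted p = 0.0375) and lower in goblet-enriched than in enterocyte-enriched cells (-1.34, limma adjusted p = 0.0349). The first call ended without enterocyte-enriched replicate 1, 2 or 3 (limma adjusted p = 0.121, 0.0502 and 0.0674) or Lgr5-enriched replicate 1 or 2 (0.118 and 0.0746), and the second without enterocyte-enriched replicate 1 or 3 (0.114 and 0.0633) or goblet-enriched replicate 1 or 2 (0.105 and 0.0606).

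Of 11 receptor trafficking and turnover genes tested, 2 were higher and 4 lower in goblet-enriched and likewise 2 and 4 in enterocyte-enriched against Lgr5-enriched cells. Among all tested genes, 10.7% were higher and 23.6% lower in the first comparison, and 12% and 37.6% in the second. After median-of-ratios scaling the counts in this list were 2 and 1 in goblet-enriched and 4 and 2 in enterocyte-enriched cells. With that scaling 26.3% and 43.2% of all tested genes were called in these comparisons. Dtx4, a deltex-family ubiquitin ligase, was at 6.17, 8.73 and 10.7 TPM in goblet-enriched, 2.74, 5.02 and 8.67 TPM in enterocyte-enriched and 36.6, 37.5 and 38.5 TPM in Lgr5-enriched replicates 1 to 3. The Lgr5-enriched libraries were above all others, with differences of -2.04 in goblet-enriched (limma adjusted p = 0.00171) and -2.68 in enterocyte-enriched cells (limma adjusted p = 0.000326). Nedd4, a ubiquitin ligase with Notch among its substrates, was lower in enterocyte-enriched than in Lgr5-enriched cells (-1.51, limma adjusted p = 6.59e-05). Dtx3 was also lower there (-1.54, limma adjusted p = 0.0257), a call that ended after both scalings (limma adjusted p = 0.0612 and 0.0706) and without enterocyte-enriched replicate 1 (0.0831) or Lgr5-enriched replicate 2 or 3 (0.0734 and 0.0802). Wwp2, a ligase of the Nedd4 family, was lower in goblet-enriched than in enterocyte-enriched cells (-1.60, limma adjusted p = 0.000169).

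In the nucleus, 15 genes of the Notch transcription complex and its corepressors were tested. Of these, 0 were higher and 4 lower in goblet-enriched, and 0 higher and 10 lower in enterocyte-enriched, against Lgr5-enriched cells, and 5 were higher and 0 lower in goblet-enriched against enterocyte-enriched cells. Lower calls made up 23.6% and 37.6% of all tested genes in the first pair of comparisons, and higher calls 28.2% in the last. The counts were smaller with other scalings. After median-of-ratios scaling 1 was lower in goblet-enriched and 2 in enterocyte-enriched against Lgr5-enriched cells, and 1 was higher in goblet-enriched against enterocyte-enriched cells. After quantile normalization the counts were 1, 4 and 3. The called share of all tested genes was 26.3%, 43.2% and 41.2% after median-of-ratios scaling, and 29.7%, 41.2% and 40.9% after quantile normalization. Rbpj, the DNA-binding partner of Notch, averaged 15.1 ± 1.81, 10.6 ± 0.178 and 19.0 ± 1.51 TPM in goblet-enriched, enterocyte-enriched and Lgr5-enriched cells (SD). It was lower in enterocyte-enriched than in Lgr5-enriched cells (-0.79, limma adjusted p = 0.00207), a call that ended after median-of-ratios scaling (limma adjusted p = 0.0528) and quantile normalization (0.109). It was higher in goblet-enriched than in enterocyte-enriched cells (0.47, limma adjusted p = 0.0273), which ended after both scalings (0.143 and 0.197) and without any 1 of the 3 enterocyte-enriched libraries (0.0614, 0.0750 and 0.0582) or goblet-enriched replicate 1 or 2 (0.0553 and 0.0962). Maml1, its co-activator, was not called in any comparison (limma adjusted p = 0.705, 0.13 and 0.271). Kat2a, an acetyltransferase of the complex, was lower in enterocyte-enriched than in Lgr5-enriched cells (-1.07, limma adjusted p = 0.00121).

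Among 9 tested HES, HEY and other target genes, goblet-enriched cells had 3 higher and 1 lower, and enterocyte-enriched cells 1 higher and 4 lower, against Lgr5-enriched cells. Of all tested genes, 10.7% were higher and 23.6% lower in the first comparison, and 12% and 37.6% in the second. The 3 higher include Hes7, which passed the filter on low values only through goblet-enriched libraries. After median-of-ratios scaling the counts in this list were 3 and 1 in goblet-enriched and 2 and 2 in enterocyte-enriched cells. With that scaling 26.3% and 43.2% of all tested genes were called in these comparisons. Hes6, a HES relative that opposes HES1 in neurons, was at 187, 261 and 221 TPM in goblet-enriched, 72.5, 93.4 and 101 TPM in enterocyte-enriched and 126, 139 and 141 TPM in Lgr5-enriched replicates 1 to 3. The populations did not overlap, and goblet-enriched libraries were highest, by 0.70 over Lgr5-enriched (limma adjusted p = 0.0105) and 1.32 over enterocyte-enriched cells (limma adjusted p = 0.000301). The order of Hes6 thus differed from that of Hes1. Myc, a growth regulator and Notch target in T cells, was lower in enterocyte-enriched than in Lgr5-enriched cells (-2.03, limma adjusted p = 0.000434) and higher in goblet-enriched than in enterocyte-enriched cells (1.5, limma adjusted p = 0.00201). Ccnd1, a G1 cyclin, was lower in enterocyte-enriched than in Lgr5-enriched cells (-1, limma adjusted p = 0.000819). The summed level of 4 cycling markers was 393 to 514 TPM in goblet-enriched, 186 to 310.2 TPM in enterocyte-enriched and 789 to 1147 TPM in Lgr5-enriched libraries, and its part in Myc and Ccnd1 was not tested.

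Hes7, the segmentation clock repressor, was low, at 1.82 to 3.34 TPM in goblet-enriched, 0 to 0.723 TPM in enterocyte-enriched and 0.596 to 0.736 TPM in Lgr5-enriched libraries. It passed the filter only through the goblet-enriched libraries, so these levels are also a description with no test. Hes2 was higher in enterocyte-enriched than in Lgr5-enriched cells (1.09, limma adjusted p = 0.0103), at 2.78 to 4.64 against 0.609 to 1.98 TPM, a call that ended without replicate 1 of all populations (limma adjusted p = 0.0581). Of 6 O-glycosylation genes tested, goblet-enriched cells had 1 higher and 3 lower, and enterocyte-enriched cells 0 higher and 4 lower, against Lgr5-enriched cells, the last of these counts being 2 after either scaling. The shares of all tested genes were 10.7% higher and 23.6% lower in the first comparison, and 12% and 37.6% in the second. In the second, 43.2% of all tested genes were called after median-of-ratios scaling and 41.2% after quantile normalization. Gxylt1, a xylosyltransferase that extends O-glucose on Notch, was higher in goblet-enriched than in enterocyte-enriched cells (1.5, limma adjusted p = 0.000886). Xxylt1, which adds the next xylose, was lower in enterocyte-enriched than in Lgr5-enriched cells (-1.11, limma adjusted p = 0.00461).

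**Figure D4:**
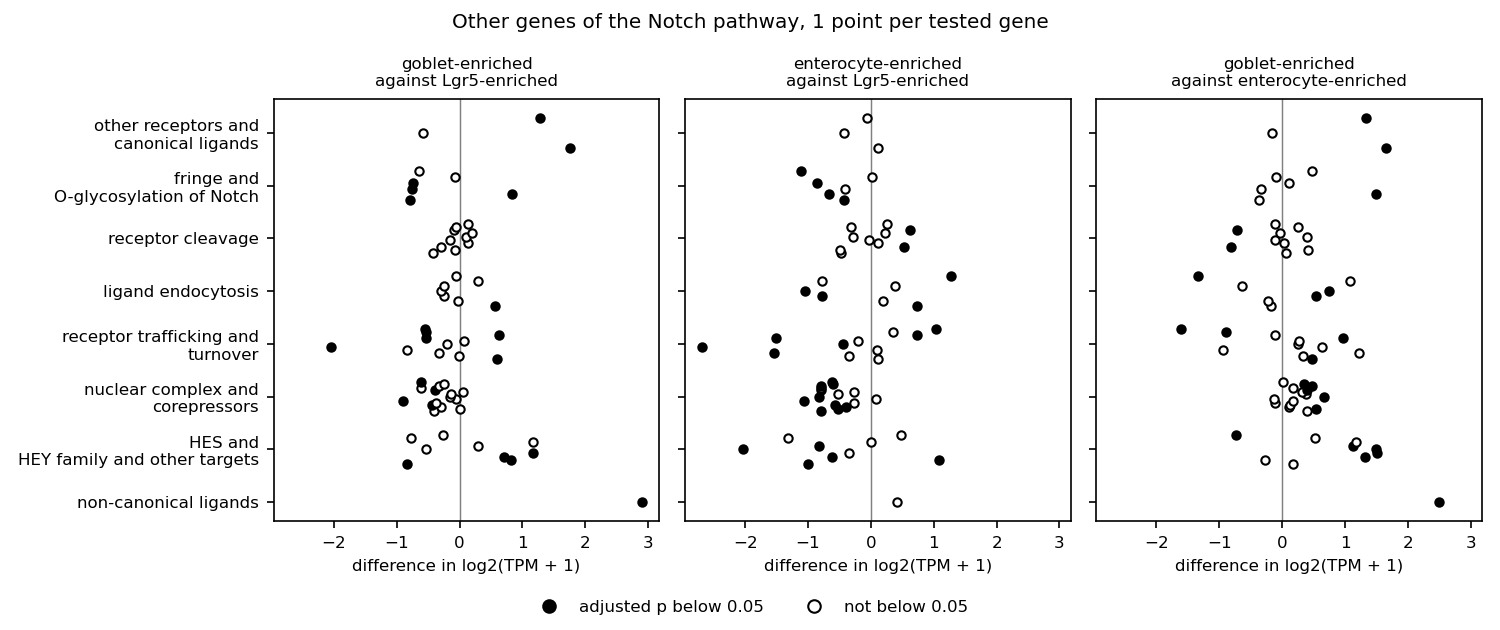
Difference in log2(TPM + 1) (horizontal axes) of the 62 tested further genes of the Notch pathway, 1 point per gene by list, filled where the limma adjusted p was below 0.05. The 10 receptor cleavage genes are all open points in goblet-enriched against Lgr5-enriched cells, and Dtx4 lies furthest to the left there, at -2.04. Dlk1, Dll3 and Hes7 are drawn too, but they passed the filter on low values only through goblet-enriched libraries. Their points are a description with no test.

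Atoh1, the secretory factor that HES1 represses, was at 367, 326 and 322 TPM in goblet-enriched, 55.5, 58.4 and 80.9 TPM in enterocyte-enriched and 3.39, 6.42 and 5.77 TPM in Lgr5-enriched replicates 1 to 3. The populations did not overlap and stood in the same order as for Dll1 and Dll4. Atoh1 was higher by 5.81 in goblet-enriched (limma adjusted p = 5.57e-07) and by 3.43 in enterocyte-enriched (limma adjusted p = 4.07e-05) than in Lgr5-enriched cells, and by 2.38 in goblet-enriched than in enterocyte-enriched cells (limma adjusted p = 7.44e-05). All 4 secretory fate factors tested were higher in goblet-enriched cells in both comparisons, among them Spdef, a driver of goblet maturation (6.65 over Lgr5-enriched, limma adjusted p = 1.6e-07), and Gfi1, which keeps secretory cells from the endocrine fate (4.87 over Lgr5-enriched, limma adjusted p = 3.61e-06). Against Lgr5-enriched cells, 3 of the 4 were higher in enterocyte-enriched cells. Higher calls made up 10.7% of all tested genes in goblet-enriched and 12% in enterocyte-enriched against Lgr5-enriched cells. They made up 28.2% in goblet-enriched against enterocyte-enriched cells.

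The genes whose levels over the 9 libraries were most like those of the members were found by Pearson's r of log2(TPM + 1), as a description. For Dll4 they were Tob1, Syt7, Pdxdc1 and Rnf39 (r = 0.995, 0.994, 0.992 and 0.990), and for Dll1 Tmem50a, E230016K23Rik, Dennd1b and Rassf6 (r = 0.989, 0.980, 0.980 and 0.974). For Hes1 they were Irf5, Tcf20, Dbt and Cyb5r1 (r = 0.997, 0.989, 0.987 and 0.986), and for Notch1 Tert, Fam171a1, Wdr4 and Txnrd2 (r = 0.990, 0.983, 0.983 and 0.982). Syt7, a synaptotagmin of regulated exocytosis, averaged 99.6 ± 5.24, 18.6 ± 5.12 and 5.81 ± 1.77 TPM in goblet-enriched, enterocyte-enriched and Lgr5-enriched cells (SD), and Tert, the telomerase reverse transcriptase, 1.35 ± 0.830, 1.77 ± 0.484 and 6.00 ± 1.70 TPM. With 3 populations behind 9 libraries, any gene ordered the same way gives a high r.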

How the data were processed

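RNA was sequenced from 9 libraries, 3 for each population, with the groups and replicate numbers taken from the labels. The labels name 2 sequencing instruments, and which library went to which is not used here. The authors deposited 1 log2 value per gene symbol and library. The submitters' processing notes name Cufflinks and mm10. Aligner, annotation and use of strand are not given in the sources. From TPM 1 upward the deposited log2 values are log2(TPM), and under TPM 1 they are TPM less 1, so they were turned back into TPM, and each column then summed to 1000000. Whole reads were recovered for 99.95% of 18396 genes (within 1e-06 of a read, trying lengths up to 20000 bases), as lower bounds, which gave 11.2 to 26.8 M reads per library (M, times 1000000). Of the per-sample columns, 0 were left unused.

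The 12888 genes that reached 1 TPM in 3 or more libraries were tested on the log2(TPM + 1) scale, using limma 3.58.1 under R 4.3.3 (lmFit, eBayes with a trend, 1 mean per population, 6 residual and 3.21 prior degrees of freedom). All tests were two-sided, with Benjamini-Hochberg adjustment over all tested genes of a comparison and a threshold of 0.05. Fold changes on this scale understate the change of low genes. The script was tested on simulated data. Tables were handled in Python 3.11.15 with pandas 2.3.3. Gene positions are from GENCODE M21 on GRCm38 and promoter windows from RefSeq on GRCm38.p6. The members, the lists and the tests were chosen with earlier results of these data known.

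All 10 members are named. Of the other pathway lists, genes called with a log2 difference of at least 1 in size are named, at most 3 per list and comparison, with Rbpj, Maml1, Adam10, Mib1 and Atoh1 whatever their values, and the 4 genes most like Notch1, Hes1, Dll1 and Dll4. A further gene that this rule names is not reported here. The alternatives were a pseudocount of 0.1, no filter, a filter at 5 TPM, median-of-ratios scaling, quantile normalization, a replicate block, array weights, fits of 6 libraries, each library left out in turn and replicate 1 left out of all populations. limma-voom on the recovered reads was added after seeing the data.

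Libraries with the same replicate number deviated alike. Deviations from the population means correlated at 0.194 to 0.601 in all 9 same-numbered pairs, against -0.52 to 0.166 in the others. The main fit did not use this pairing, which entered only as the replicate block among the alternatives. With the block, limma called 49.3%, 61.2% and 56.9% of tested genes in the 3 comparisons, against 34.3%, 49.6% and 44.1% in the main fit. The series text says that the libraries represent 3 independent mice, but enterocyte-enriched replicate 1 differed in sex-linked transcripts from the other libraries of its number, so an equal number does not mean the same mouse there. The p-values measure the spread between these libraries, which may be partly technical.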

Additional observations from a re-analysis of the deposited data

How the results depend on the processing

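Of 498 values of members under an alternative, 458 kept their direction and their side of the threshold, 30 lost the call, 7 gained one and 3 changed direction. The 3 were Notch1 in goblet-enriched against enterocyte-enriched cells (-0.49, and -0.99 to 0.21 with 1 library left out, highest without goblet-enriched replicate 1) and Hes1 in the same comparison (0.13, -0.06 after median-of-ratios scaling, and -0.02 to 0.25 with 1 library left out, lowest without goblet-enriched replicate 2), and none of them was called. Goblet-enriched against Lgr5-enriched cells had 4423 genes called, 7611 with array weights, and 2646 to 4597 with 1 library left out, lowest without Lgr5-enriched replicate 3. Enterocyte-enriched against Lgr5-enriched cells had 6396 called (5055 to 6909 with 1 library left out), and goblet-enriched against enterocyte-enriched cells 5687 (4493 to 5897). Members called higher in goblet-enriched against Lgr5-enriched cells were 3, and 2 to 3 with 1 library left out. Higher members of enterocyte-enriched against Lgr5-enriched cells were 2, but 1 with no filter, and 1 to 2 with 1 library left out. Members called lower in goblet-enriched against enterocyte-enriched cells were 1, but 2 after median-of-ratios scaling, quantile normalization, with array weights or in limma-voom, 0 when only 6 libraries were fitted, and 0 to 1 with 1 library left out. With the replicate block there were 2, Jag1 and Notch2, and the block changed no other call of a member. The cause was not tested. Depth limits Notch3 and Mfng, with at most 33 and 24 reads per library.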
